A study of Mus musculus with 2 samples.

Results

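The red-cell miRNAs miR-451a, miR-144 and miR-486 were examined in the RNA of extracellular vesicles (EVs) isolated from mouse plasma. They were chosen by name, as 5 mature mouse miRNAs (mmu-miR-451a, mmu-miR-144-3p, mmu-miR-144-5p, mmu-miR-486a-5p and mmu-miR-486b-5p, written without the species prefix from here on) out of 1915 mature miRNA names on the array. All 5 were found. miR-486a-5p and miR-486b-5p share 1 spot and cannot be told apart, so that the 5 miRNAs were read from 4 of 1900 miRNA spots.

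The EVs came from male C57BL/6 mice, a strain described as recovering its hindlimb blood flow after ligation of the femoral vessels, and were set against EVs of male BALB/c mice, described as not recovering it. Mice of both strains were 8 weeks old, had the left femoral vessels ligated and cut, and were bled 24 h later. Plasma EV RNA of 5 mice was pooled for each strain, labelled with Cy5 and read on 1 array, the 3D-Gene miRNA oligo chip, which gives the brightness of 1 spot per miRNA in arbitrary units. All mice had been ligated, so that nothing here compares a ligated with an unligated mouse. A single pool per strain leaves no replicates, so that the strains were compared without SD or test and precision is limited by having 2 arrays. The labels call the samples EVs, while their extraction protocol speaks of cells, and the plasma EV protocol of the series was followed here.

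miR-451a and miR-144 are made from 1 primary transcript that the erythroid transcription factor GATA1 switches on as red cell precursors mature. Most miRNAs are cut from their hairpin by the enzyme Dicer, which leaves a 5p and a 3p arm. The hairpin of miR-451a is too short for Dicer and is cut by Argonaute 2 instead, so that it yields a single mature strand. miR-486 is a product of Ank1, the gene of ankyrin-1 of the red cell membrane skeleton, and is also made in muscle. Mature red cells keep these miRNAs, and blood plasma takes them up when red cells break or shed vesicles, so that miR-451a set against miR-23a-3p, which red cells hold in low amount, is used elsewhere to follow red cell lysis.

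RefSeq (GRCm38.p6) held sequences for 3 of the 5 miRNAs, those of miR-451a and of both arms of miR-144. The mature sequences are shown because the seed, bases 2 to 8 (in capitals), sets which mRNAs a miRNA pairs with, and because miR-101a-3p shares part of a seed with miR-144-3p.
miR-451a: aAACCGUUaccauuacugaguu
miR-144-3p: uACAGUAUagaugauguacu
miR-144-5p: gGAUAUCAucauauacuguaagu
miR-101a-3p: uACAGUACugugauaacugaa

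No other of 1678 mature mouse miRNAs in that table had the seed of miR-451a, of miR-144-3p or of miR-144-5p. With the seed shortened to bases 2 to 7, miR-144-3p shared it with miR-101a-3p, and the other 2 shared it with none. Over the 20 positions of miR-144-3p, miR-101a-3p had the same base at 8 of them. The hairpins are shown with their mature strands in capitals, since the array read both arms of miR-144 and the single strand of miR-451a.
Mir144: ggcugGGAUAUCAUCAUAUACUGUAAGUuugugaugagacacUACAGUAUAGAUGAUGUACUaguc
Mir451a: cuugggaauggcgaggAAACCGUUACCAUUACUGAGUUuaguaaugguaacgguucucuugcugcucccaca

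Both hairpins lie on the plus strand of chromosome 11, Mir144 at chr11:78073005-78073070 and Mir451a at chr11:78073170-78073241, with 99 bases between them. The mature miR-451a takes up positions 17 to 38 of the 72 bases of its hairpin. The 66 bases of Mir144 hold miR-144-5p at positions 6 to 28 and miR-144-3p at positions 43 to 62. The opposite strand of the Mir451a hairpin is annotated as Mir451b, with the mature miR-451b. Mir486 lies on chromosome 8 within the bounds of Ank1 in that annotation.

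miR-451a was the brightest of these miRNAs in the EVs of both strains. Its spot intensity was 4180 in C57BL/6 EVs and 1603 in BALB/c EVs. miR-144-3p followed with 235 in C57BL/6 EVs and 159 in BALB/c EVs. The shared spot of miR-486a-5p and miR-486b-5p had 201 in C57BL/6 EVs and 138 in BALB/c EVs. miR-144-5p had 98.7 in C57BL/6 EVs and 105 in BALB/c EVs, which on both arrays is the level of empty spots. The order of the 4 spots was thus the same on both arrays, and a spot's brightness also depends on its probe, so that the order is one of intensities and not of copies.

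The level of empty spots was taken from BLANK spots, of which 806 were left after the highest and lowest 5% were taken out. Their mean was 98.3 for C57BL/6 (SD 3.62) and 102 for BALB/c (SD 4.02). A miRNA was called detected above this mean plus 2 SD, that is above 106 on the C57BL/6 array and above 111 on the BALB/c array. By this rule 3 of the 4 spots were detected in C57BL/6 EVs, where 33.6% of all miRNA spots were, and the same 3 of 4 in BALB/c EVs, where 9.84% were. A set of 178 miRNA spots (9.37%), called shared miRNAs below, was detected on both arrays, and neither array detected 65.9%, miR-144-5p among them. In units of the SD of the BLANK spots, miR-451a lay 1128 SD above their mean in C57BL/6 EVs and 373 SD in BALB/c EVs, miR-144-3p 37.8 SD in C57BL/6 and 14.2 SD in BALB/c, and the miR-486 spot 28.4 SD in C57BL/6 and 8.89 SD in BALB/c.

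**Figure D1:**
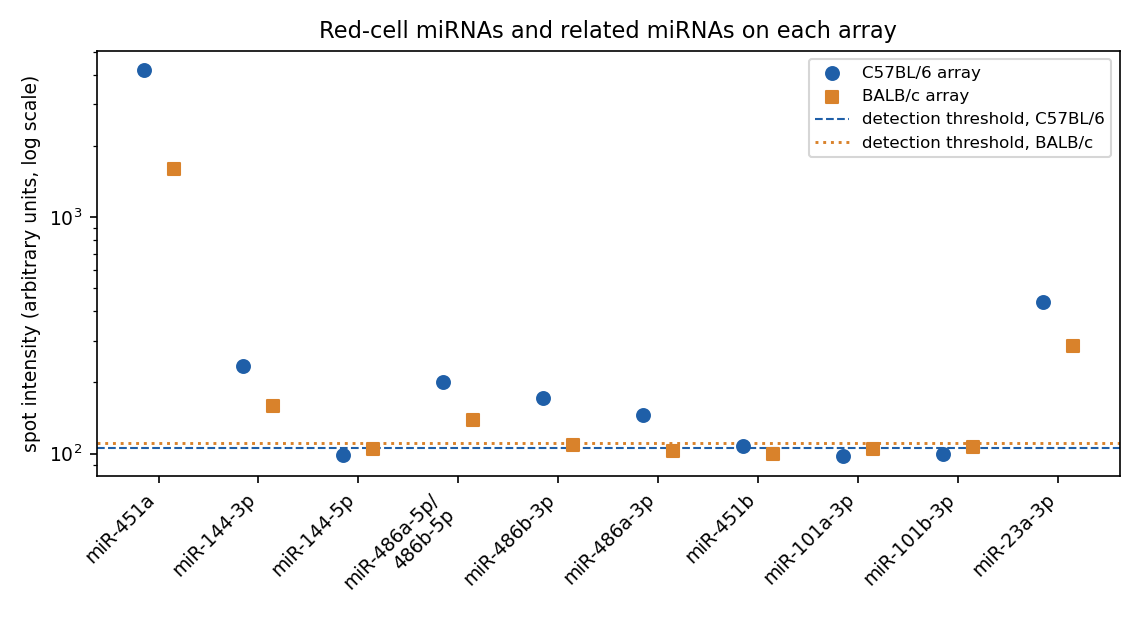
Spot intensity (arbitrary units, log scale) of each miRNA on the C57BL/6 array (circles) and the BALB/c array (squares), with the detection threshold of each array as a line. miR-451a stands at 4180 in C57BL/6 and 1603 in BALB/c, while miR-144-5p, miR-101a-3p and miR-101b-3p lie below the threshold on both arrays.

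miR-451a ranked 9 among the 1900 spots in C57BL/6 EVs and 2 in BALB/c EVs. miR-144-3p ranked 89 in C57BL/6 EVs and 47 in BALB/c EVs, and the miR-486 spot 114 in C57BL/6 EVs and 68 in BALB/c EVs. All 3 thus stood higher in the order of the BALB/c array, as did 62.4% of the shared miRNAs. The signal of miR-451a above the BLANK mean made up 2.76% of the summed signal of all detected miRNAs in C57BL/6 EVs and 8.87% in BALB/c EVs. The share of miR-144-3p was 0.0923% in C57BL/6 EVs and 0.337% in BALB/c EVs, and that of the miR-486 spot 0.0693% in C57BL/6 and 0.211% in BALB/c.

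The same 10 miRNAs were the brightest of both arrays, and miR-451a had the lowest ratio of C57BL/6 to BALB/c among them. Ratios were formed from signals above the BLANK mean and are given as a log2 difference from the median of the 178 shared miRNAs, so that a factor that makes a whole array brighter cancels. On this scale miR-451a was at -0.53, miR-6240 at -0.00 and the 8 others between 1.08 and 1.86, among them miR-2137 at 1.37 and miR-711 at 1.60, the 2 brightest of the C57BL/6 array. miR-451a was also the only 1 of the 10 with an miRBase accession number no higher than that of miR-486a-5p, that is, an early one.

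Relative to the shared miRNAs, the 3 detected spots were all lower in the C57BL/6 than in BALB/c EVs. The relative log2 ratio was -0.53 for miR-451a (0.693-fold), -0.71 for miR-144-3p (0.611-fold) and -0.45 for the miR-486 spot (0.732-fold). By definition 50% of the shared miRNAs lie below 0, 28.7% lay between -1 and 0, as these 3 did, and 21.3% lay below -1. Shifting the signals of both strains in opposite directions, each by 2 SD of its BLANK spots, gave ranges of -0.54 to -0.52 for miR-451a, -0.98 to -0.42 for miR-144-3p and -0.85 to 0.02 for the miR-486 spot, the last of which includes 0. The ranges hold the noise of dim spots only. Among bright spots, the 8 spots of each spike control had a coefficient of variation of 5.68% (control 1) and 5.98% (control 2) on the C57BL/6 array and of 6.07% (control 1) and 3.26% (control 2) on the BALB/c array. Counted from the highest ratio, miR-486 ranked 105, miR-451a 112 and miR-144-3p 123 of 178, so that they were near the middle of the shared miRNAs and no extremes.

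Early accessions moved with these ratios. The 69 shared miRNAs with an accession number up to that of miR-486a-5p had a median of -0.72, with 63 of them below 0, and the 109 others a median of 1.14, with 26 below 0. The 3 spots lay at or above the median of the early ones. The part of accession order, and of anything that goes with it such as probe design, in the ratios of the 3 spots was not tested.

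**Figure D2:**
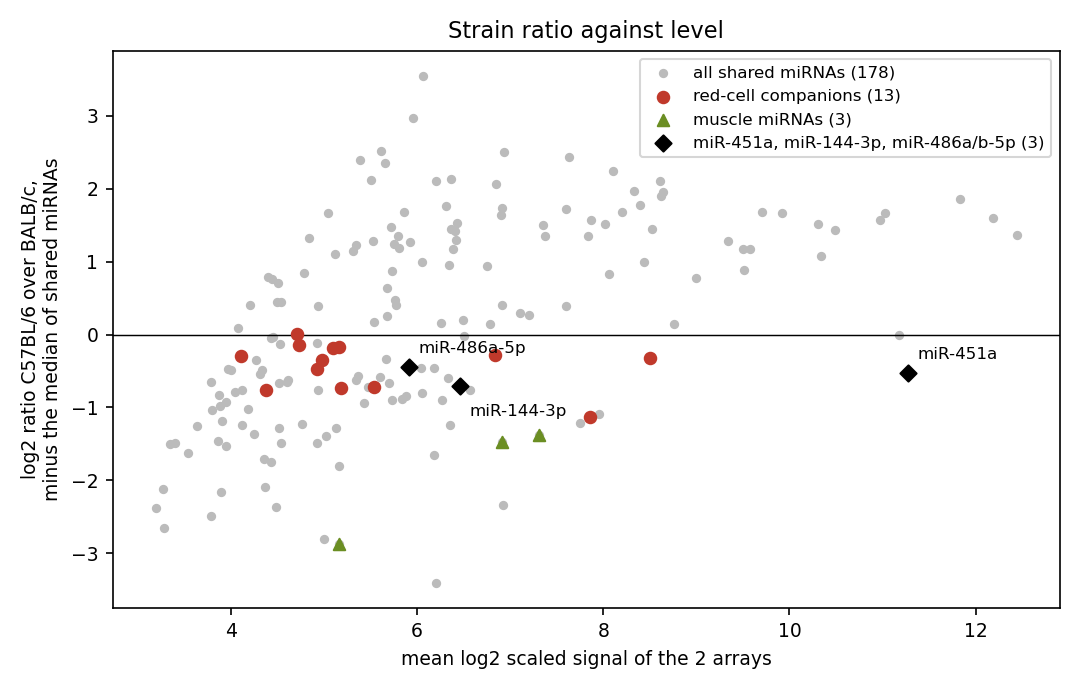
Log2 ratio of C57BL/6 to BALB/c minus the median of the 178 shared miRNAs (vertical axis) against the mean log2 scaled signal of both arrays (horizontal axis), with 1 point per shared miRNA. The diamonds of miR-451a, miR-144-3p and the miR-486 spot lie between -0.71 and -0.45, and miR-451a stands apart at its level from the bright miRNAs above 1.

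Whether the 3 spots had a higher or a lower level in C57BL/6 EVs depended on how the arrays were scaled to each other, since 1 factor moves all of them together. Scaled to the same 75th percentile of the shared miRNAs, which divided each ratio by 5.32, the C57BL/6 level was 0.511-fold that of BALB/c for miR-451a, 0.451-fold for miR-144-3p and 0.540-fold for miR-486. All 3 were thus lower in C57BL/6 on this scale, as 58.4% of the shared miRNAs were. Without scaling, the median ratio of the shared miRNAs was 3.93-fold. In the table of processed intensities that the authors deposited, which sets the median of the detected miRNAs of each array to 25, miR-451a had 5163 in C57BL/6 EVs and 1583 in BALB/c EVs, a ratio of 3.26-fold. There the ratio was 2.87-fold for miR-144-3p (173 in C57BL/6 and 60.1 in BALB/c) and 3.45-fold for miR-486 (130 in C57BL/6 and 37.7 in BALB/c). With no scaling the ratios were 2.72-fold, 2.40-fold and 2.87-fold, in the same order of miRNAs, and scaled on the spike controls 1.51-fold, 1.33-fold and 1.60-fold. The 2 kinds of spike control had 1.70-fold and 1.90-fold the brightness on the C57BL/6 array that they had on the BALB/c array, and it is unknown here when they were put in. The scaling of the authors' table was found by setting it against the scanner values, since no source used here gives it.

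**Figure D3:**
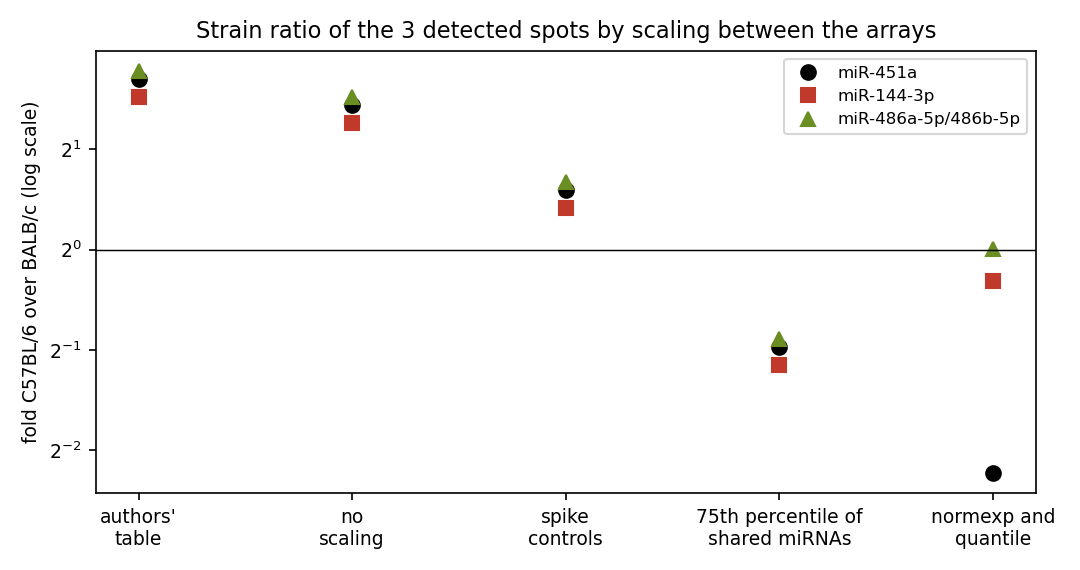
Ratio of C57BL/6 to BALB/c (log scale) of miR-451a, miR-144-3p and the miR-486 spot under 5 ways of scaling the arrays. All 3 lie above 1 in the authors' table (2.87-fold to 3.45-fold), without scaling and when scaled on the spike controls, between 0.451-fold and 0.540-fold on the 75th percentile of the shared miRNAs, and at 0.213-fold, 0.804-fold and 1.01-fold with normexp and quantile normalization.

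Set against each other, the 3 miRNAs differed between the strains by no more than the noise of the BLANK spots, but not under every processing. The ratio of miR-451a to miR-144-3p was 1.13-fold higher in the C57BL/6 than in BALB/c EVs (range 0.919-fold to 1.38-fold). The ratio of miR-451a to the miR-486 spot was 0.947-fold in the C57BL/6 relative to the BALB/c EVs (range 0.680-fold to 1.26-fold), and that of miR-486 to miR-144-3p 1.20-fold (range 0.742-fold to 1.99-fold). Each range includes 1. The ranges cover the noise of the BLANK spots only. In such a ratio of ratios the affinity of each probe and any array factor cancel. With the local background of each spot subtracted instead of the BLANK mean, miR-451a to miR-144-3p had a log2 difference of -1.03 and miR-451a to miR-486 of -0.69 in C57BL/6 relative to BALB/c. With normexp and quantile normalization these were -1.91 and -2.24, so that miR-451a stood lower than both others in C57BL/6 under these 2 settings, beyond the ranges above.

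Of the arms of miR-144, only miR-144-3p was detected, and this held in both strains. miR-144-5p lay 0.11 SD above the BLANK mean in C57BL/6 EVs and 0.58 SD in BALB/c EVs. Of 39 hairpins on the array with a 3p arm detected in both strains, 29 (74.4%) had a 5p arm detected in neither, so that miR-144 was like most of them. miR-101a-3p, which shares bases 2 to 7 with miR-144-3p, had 97.6 in C57BL/6 EVs and 104 in BALB/c EVs, and miR-101b-3p had 99.4 in C57BL/6 and 107 in BALB/c. Both are below the threshold on both arrays, and no signal at the miR-101 spots accompanied that of miR-144-3p.

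miR-451b, the antisense product of the Mir451a hairpin, had 108 in C57BL/6 EVs and 99.7 in BALB/c EVs. It passed the C57BL/6 threshold by little, at 2.64 SD, and was not detected in BALB/c.

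The miR-486 hairpins showed a 3p arm in C57BL/6 EVs only. miR-486b-3p had 172 in C57BL/6 EVs and 109 in BALB/c EVs, that is 20.4 SD above the BLANK mean in C57BL/6 and 1.70 SD in BALB/c. miR-486a-3p had 146 in C57BL/6 EVs and 103 in BALB/c EVs, that is 13.1 SD in C57BL/6 and 0.11 SD in BALB/c. The 5p spot, in contrast, was detected in both strains. The sequences of the miR-486 arms were not available here. Whether the spots of miR-486a-3p and miR-486b-3p read separate molecules was therefore not tested. Detection in C57BL/6 alone was found for 24.2% of all miRNA spots. Of 90 hairpins with both arms on the array and the 5p arm detected in both strains, 37 (41.1%) had the 3p arm detected in C57BL/6 only, so that the pattern of miR-486 was a common one.

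Since the 3p arms had no measured level in BALB/c, lower bounds were taken against the higher of the lowest signal detected on that array (8.08) and the arm's own signal. These bounds on single arms make no allowance for the noise of the BLANK spots, with which they would be lower. Before any scaling, miR-486b-3p was higher in C57BL/6 by at least 9.12-fold and miR-486a-3p by at least 5.86-fold, against 2.87-fold for the 5p spot. Relative to the shared miRNAs, miR-486b-3p was higher in C57BL/6 by at least 2.32-fold and miR-486a-3p by at least 1.49-fold, while the 5p spot was at 0.732-fold. The ratio of the 5p spot to miR-486b-3p was therefore at most 0.315-fold in the C57BL/6 relative to the BALB/c EVs, and that to miR-486a-3p at most 0.491-fold. With both arms moved by 2 SD of the BLANK spots these limits were 0.887-fold and 0.838-fold. The log2 difference of 5p to miR-486b-3p, at most -1.67, was -0.57 with the local background subtracted and -0.082 with the normexp background correction and quantile normalization, which change background and normalization together. Under these 2 settings the undetected BALB/c 3p arm entered at its own value, so that they give no limit. The size of the difference thus depended on the processing and on how the undetected arm was entered.

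Set against miR-23a-3p, miR-451a was higher in C57BL/6 EVs, but this did not hold under every background correction. miR-23a-3p had a spot intensity of 436 in C57BL/6 EVs and 286 in BALB/c EVs, and its relative log2 ratio was -1.09. The ratio of miR-451a to miR-23a-3p was 1.48-fold higher in the C57BL/6 than in BALB/c EVs (range 1.37-fold to 1.59-fold), a log2 difference of 0.56. With the local background subtracted the difference was -0.65, and with normexp and quantile normalization -0.97. Red cell lysis was not measured by other means here, so that its part in these levels was not tested.

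Other miRNAs, taken to be present in red cells but not special to them, were listed as companions. The abundance of each in red cells was not measured here. Of 21, 13 were detected in both strains, 4 in C57BL/6 only, 1 in BALB/c only and 3 in neither. The 13 had a median relative log2 ratio of -0.33, from -1.13 for miR-22-3p to 0.00 for let-7i-5p, with 12 of them below 0, against 50% of all shared miRNAs and 63 of the 69 with early accessions, to which all 13 belong. With the local background subtracted, the median of the 10 companions left was -1.13 and that of the 3 spots -0.56. The range by BLANK noise excluded 0 for miR-16-5p, miR-15b-5p, miR-19b-3p and miR-22-3p and included it for the others. The brightest was miR-16-5p, with 740 in C57BL/6 EVs and 307 in BALB/c EVs and a relative log2 ratio of -0.33. The ratio of miR-451a to miR-16-5p was 0.868-fold in the C57BL/6 relative to the BALB/c EVs (range 0.819-fold to 0.919-fold, by BLANK noise only). Its log2 difference of -0.20 was -0.34 with the local background subtracted and -1.54 with normexp and quantile normalization. miR-15b-5p was at -0.28, miR-92a-3p at -0.17, miR-25-3p at -0.19, miR-17-5p at -0.73 and miR-19b-3p at -0.72. Of the miR-183 cluster, which maturing red cells also make, miR-182-5p was at the limit. It lay 1.98 SD above the BLANK mean in C57BL/6 and 2.45 SD in BALB/c. miR-183-5p (1.69 SD in C57BL/6 and 1.38 SD in BALB/c) was detected in neither. Nor was miR-96-5p (-0.36 SD in C57BL/6 and 0.29 SD in BALB/c).

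**Figure D4:**
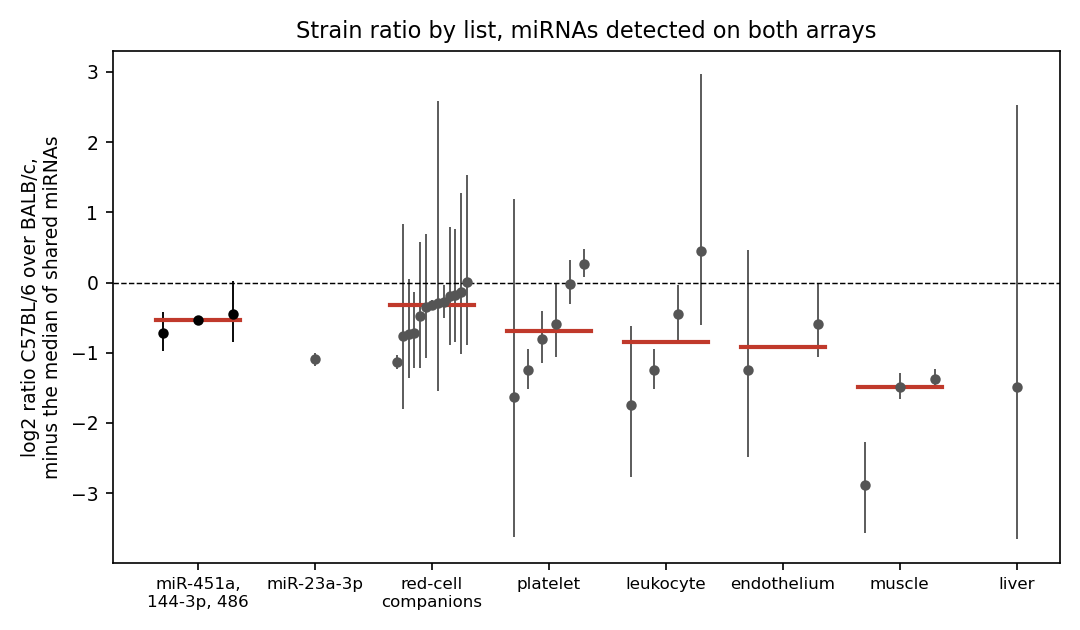
Log2 ratio of C57BL/6 to BALB/c minus the median of the shared miRNAs, with 1 point per miRNA detected on both arrays, bars for the range when both signals move by 2 SD of the BLANK spots, and a line at the median of each list. The 3 red-cell spots lie between -0.71 and -0.45, and the 3 muscle miRNAs between -2.88 and -1.38.

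Lists of miRNAs used as markers of other sources of plasma EVs had these values beside the 3 spots. The lists overlap and are not separate measures of each source. miR-223-3p is in the platelet and leukocyte lists, and miR-126a-3p in the platelet and endothelial lists. For comparison, the 69 shared miRNAs with early accessions had a median of -0.72, with 63 of them below 0. How many miRNAs of these lists have early accessions was not counted. The platelet list had a median relative log2 ratio of -0.69 (6 of 6 on the array detected in both strains), with miR-223-3p, which is abundant in platelets and myeloid cells, at -1.24 and miR-24-3p at 0.27. The summed signal of the list was 796 in C57BL/6 EVs and 262 in BALB/c EVs. The leukocyte list had a median of -0.85 (4 of 7 in both), with summed signals of 320 in C57BL/6 and 133 in BALB/c, and miR-155-5p was detected in neither strain. The endothelial list, both arms of miR-126a, had a median of -0.91 and summed signals of 101 in C57BL/6 and 43.5 in BALB/c. The range by BLANK noise was -1.07 to -0.01 for miR-126a-3p and -2.48 to 0.47 for miR-126a-5p. Of the liver list only miR-192-5p was detected in both strains (1 of 3), at -1.48. It lay close to the threshold, at 3.45 SD in C57BL/6 and 2.22 SD in BALB/c. Its range by BLANK noise was -3.7 to 2.5. miR-122-5p, the main miRNA of hepatocytes, reached 2.75 SD in C57BL/6 and 1.64 SD in BALB/c. With normexp and quantile normalization the list medians were -0.09 for the red-cell companions, -0.15 for platelets, -0.19 for leukocytes, -0.72 for muscle and 0.04 for endothelium. The 1 liver miRNA was at 0.05. The part of these sources in the levels of miR-451a, miR-144-3p and miR-486 was not tested.

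Muscle also makes miR-486, and the ligated vessels are those of a hindlimb. The list of muscle miRNAs was not restricted to hindlimb muscle. Of 7 muscle miRNAs, 3 were detected in both strains and 4, among them miR-206-3p and miR-499-5p, in neither. Their median relative log2 ratio was -1.48, with miR-133a-3p at -1.48, miR-133b-3p at -1.38 and miR-1a-3p at -2.88. That of the shared miRNAs with early accessions was -0.72. The summed signal of the muscle miRNAs was 365 in C57BL/6 EVs and 280 in BALB/c EVs. The ratio of the miR-486 spot to miR-133a-3p was 2.04-fold higher in the C57BL/6 than in BALB/c EVs (range 1.36-fold to 3.21-fold). The ratio of miR-451a to miR-133a-3p was 1.93-fold higher (range 1.68-fold to 2.21-fold), and its log2 difference of 0.95 was -1.49 with normexp and quantile normalization. Whether muscle or red cells released the measured miR-486 was not tested.

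The miRNAs closest in level over both arrays were sought among the shared ones, by the distance of the log2 scaled signals over the 2 arrays. For miR-451a the nearest was miR-6240, at a distance of 0.40, followed by miR-5126 at 1.54 and miR-7036a-5p at 1.59. For miR-144-3p the nearest were miR-15a-5p at 0.15, miR-29a-3p at 0.19 and miR-30c-5p at 0.30. For the miR-486 spot they were miR-142a-5p at 0.18, miR-30d-5p at 0.28 and miR-191-5p at 0.32. The distance to the nearest miRNA was thus larger for miR-451a than for the other 2 spots.

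The relative ratio of miR-451a depended most on what was taken as its background. The surroundings of its spot were bright too, at 3658 against 4180 for the spot in C57BL/6 EVs and 1081 against 1603 in BALB/c EVs. The spot minus its surroundings was 522 in C57BL/6 EVs and 522 in BALB/c EVs. With this local background subtracted, its relative log2 ratio was -1.25, and with normexp, which also uses the local background, and quantile normalization it was -2.21. miR-144-3p had -0.22 and -0.30 under these corrections, and the miR-486 spot -0.56 and 0.025. The 5 spots touching that of miR-451a had intensities of 95.2 to 138 in C57BL/6 EVs and 97.0 to 129 in BALB/c EVs. The spot of miR-144-3p (235 in C57BL/6 and 159 in BALB/c) touches that of miR-711, which had 16168 in C57BL/6 and 1450 in BALB/c and was among the 3 brightest of both arrays. Whether light of miR-711 adds to the signal of miR-144-3p was not tested. The spots touching that of miR-486 stayed between 95.8 and 105 in C57BL/6 and between 97.2 and 108 in BALB/c.

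**Figure D5:**
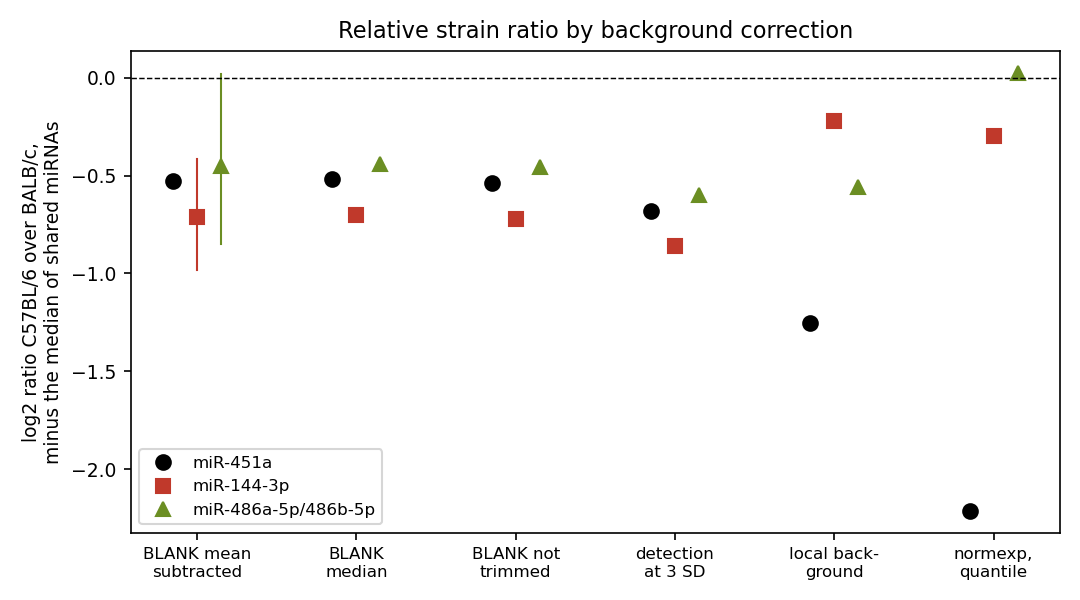
Relative log2 ratio of C57BL/6 to BALB/c of the 3 detected spots under 6 settings of background and detection, with vertical lines in the leftmost setting only, for the range when both signals move by 2 SD of the BLANK spots. The 3 lie between -0.86 and -0.44 in the settings that use BLANK spots, and miR-451a lies at -1.25 and -2.21 in the 2 settings that use the local background.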

How the data were processed

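For each array the authors deposited the scanner's median intensity at 635 nm of 3200 spots and of their surroundings, neither subtracted nor normalized per the file headers, and all flagged OK. The authors also deposited processed intensities on a linear scale, with empty cells for undetected miRNAs, by steps that no source used here gives. Set against the scanner values, they equal the spot less the trimmed BLANK mean, times 1.26 for C57BL/6 and 1.06 for BALB/c, with a largest difference of 5.65e-06 and 0 differing detection calls.

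From the 896 BLANK spots of each array the 45 highest and 45 lowest were left out. The mean of the other 806 was subtracted, and detection was set at 2 SD. Scaled values used the 75th percentile of the shared miRNAs. Spots were matched to names by splitting the name column at commas. No p-value was computed with 1 array per strain. The functions were tested on simulated data. Python 3.11.15, numpy 2.4.6, pandas 2.3.3, matplotlib 3.10.9 and R 4.3.3 with limma 3.58.1 (normexp, offset 50) were used.

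The members and lists were chosen with earlier results of these data known. Named were the members, their other arms, miR-23a-3p, seed relatives, the red-cell and cell type lists, the 3 nearest miRNAs of each detected member and its neighbours in rank. The comparisons with muscle miRNAs and miR-16-5p, those between members, the accession split and the 10 brightest were chosen after the values were seen.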

Additional observations from a re-analysis of the deposited data

Results flagged for a closer look

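The brightness around a spot was not used in the main comparisons. Around BLANK spots its mean was 78.3 for C57BL/6 (SD 5.05) and 86.2 for BALB/c (SD 5.46), and values above 88.4 in C57BL/6 and 97.1 in BALB/c, the mean plus 2 SD of each array, were singled out as a signal outside the main measurement. Around miR-451a it was 3658 in C57BL/6 EVs and 1081 in BALB/c EVs. Around miR-144-3p it was 163 in C57BL/6 and 124 in BALB/c, and around the miR-486 spot 176 in C57BL/6 and 123 in BALB/c. Around miR-144-5p it was 89.3 in C57BL/6 EVs, just above the limit, and below the limit in BALB/c EVs. Over the detected miRNAs, spot and surroundings went together on the log scale (Pearson's r 0.965 over 638 miRNAs in C57BL/6 and 0.927 over 187 in BALB/c, which share an array and are not independent). Whether the surroundings hold light of the spot itself was not tested.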

How the results depend on the processing

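The detected spots were 3 of 4 on both arrays at 3 SD, with untrimmed BLANK spots, with the BLANK median and in the authors' table. The median relative log2 ratio of the 3 spots, -0.53, was between -0.68 and -0.30 under all 6 alternatives. In the authors' table it could not differ, since a factor per array cancels. This median does not show that each spot was stable. With local background miR-451a was at -1.25 and miR-144-3p at -0.22. With normexp and quantile normalization miR-451a was at -2.21 and miR-144-3p at -0.30, and the miR-486 spot changed sign to 0.025.

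The median scaled log2 ratio of the 3 spots was -0.97. It changed sign to 1.71 in the authors' table and on each array's own median, to 1.44 with no scaling and to 0.60 on the spike controls, each of which multiplies all ratios by 1 other factor. It was -0.31 with normexp and quantile normalization and -1.31 with detection at 3 SD, which scales on 140 miRNAs. The cause of the difference with normexp was not tested.

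The log2 difference of 5p to miR-486b-3p, at most -1.67, was -0.082 with normexp. It was -0.57 with local background. Under both, the undetected BALB/c 3p arm entered at its own value and not at a limit. That of miR-451a to miR-23a-3p, 0.56, was -0.65 with local background and -0.97 with normexp. The pairs of a member with a member, miR-16-5p or a muscle miRNA were recomputed under alternatives chosen after the data were seen. miR-451a to miR-144-3p changed sign to -1.03 with local background and -1.91 with normexp, miR-486 to miR-144-3p to -0.34 with local background, miR-486 to miR-1a-3p, 2.43, to -1.20 with local background and -0.080 with normexp, and miR-451a to miR-133a-3p to -1.49 with normexp. In all of these, the cause was not tested. Of 89 recomputed values 61 moved by no more than the range set for them and changed no sign, 15 moved by more and 13 changed sign. The 61 include values that could not differ, so that their number does not measure robustness. They are relative ratios from the authors' table, and ratios of ratios from that table or without scaling. In these a factor per array cancels. Counts of detected spots, which have no sign, are also among the 61. Others of the 61 moved far within a wide range, both of the following with local background. The companion median went from -0.33 to -1.13. The difference of 5p to miR-486b-3p went from -1.67 to -0.57. No paired analysis was possible because each strain has 1 array and the labels give no replicate numbers. The dim spots limit what can be said of miR-144-5p and the 3p arms of miR-486 in BALB/c.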
